A study of Sus scrofa with 13 samples.

Results

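The comparison of ischemic control livers with baseline livers covered 5 of the 13 libraries of a porcine study of liver ischemia-reperfusion injury (IRI), the 2 labelled as baseline and the 3 labelled as ischemic control. The libraries were chosen by these labels alone, and the genes compared were all that passed a filter on low counts, 16481, of which 1107 belong to 44 lists by function or cell type. In this study female Yorkshire pigs had 45 min of warm ischemia of the whole liver, by clamping of the hepatic artery, the portal vein and the hepatic veins, and then 6 h of reperfusion. The other 8 libraries, of livers infused with human mesenchymal stromal cells, entered only the estimate of the spread between livers. Baseline tissue (replicates 1a and 2) had no ischemia, no reperfusion and no infusion, since the study's biopsies were taken before clamping and again at the end of reperfusion. The ischemic controls (replicates 1, 2 and 3) had the clamping and the reperfusion and received no cells. All animals were given glucose-enriched water in place of food beforehand, and were anesthetized and opened by laparotomy. No group had the same hours of anesthesia and open abdomen without clamping, so ischemia, reperfusion, surgery, anesthesia and time of day cannot be told apart in these values. The labels do not say which pigs the baseline biopsies came from, so a baseline and a control library may share 1, and 2 libraries against 3 limit every comparison below.

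During ischemia the liver loses its oxygen supply, hepatocytes exhaust their ATP and switch to anaerobic glycolysis, and proteins and ion gradients are disturbed. On reperfusion, reactive oxygen species and molecules released by injured cells activate Kupffer cells (the resident macrophages) and the sinusoidal endothelium, and neutrophils are drawn in. Hepatocytes, which make most plasma proteins, bile acids and lipoproteins, are known to exchange part of this synthetic work for stress and acute phase genes after injury. RNA was measured in whole tissue, where fewer cells of a type and less RNA per cell cannot be told apart.

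The total count on genes was 30952737 and 26865538 at baseline and between 18975413 and 33133296 in the controls. Ischemic control 2 had the lowest total and stood apart from the other 4 libraries: 8401 of the genes differed by over 1 on the log2 scale from the baseline mean in this library, against 3526 in control 1 and 4798 in control 3, and the first principal component of the 5 libraries, with 55.0% of the variance, set it against the rest. A log2 fold change of 1 or more in size that moved by over 1.5 times, or turned, without 1 of the 5 libraries is given with the value without the library that took it nearest to 0 or past it, or else furthest from 0. This was so at 281 of the 432 list genes of that size, and at 615 of the 675 smaller ones, whose values depend more on single libraries. Hepatocyte markers such as albumin were abundant in every library, and no cell type marker was at 0 in all 5. None of the genes, 0 of 16481, passed an adjusted p of 0.05 in the quasi-likelihood test of edgeR (Benjamini-Hochberg), where the smallest adjusted p was 0.978, so the differences below are given as values and none is a call of this test. At an unadjusted p under 0.05 there were 720 genes (4.37% of those tested), 520 higher in controls (3.16%) and 200 lower (1.21%). DESeq2 over the 5 libraries alone called 105 higher (0.654%) and 63 lower (0.393%) at an adjusted p under 0.05, while DESeq2 over all 13 libraries called 6. With edgeR over the 5 libraries 0 genes passed and the smallest adjusted p was 0.358. The common coefficient of variation between livers was 0.73 in the edgeR fit of all 13 libraries and 0.52 in that of the 5. The standard errors below are those of the fit of all 13. Every control library lay above both baseline libraries at 14.8% of the genes and below both at 16.3%, and the lists are read against these shares. Without a threshold 50.2% of all genes were higher and 49.6% lower, and the median log2 fold change of all genes was 0.0048. Normalized counts are counts divided by size factors, log2 fold changes are those of the edgeR fit with a positive sign for higher in controls, and members outside the naming rule were picked as examples after their values were seen.

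**Figure D1:**
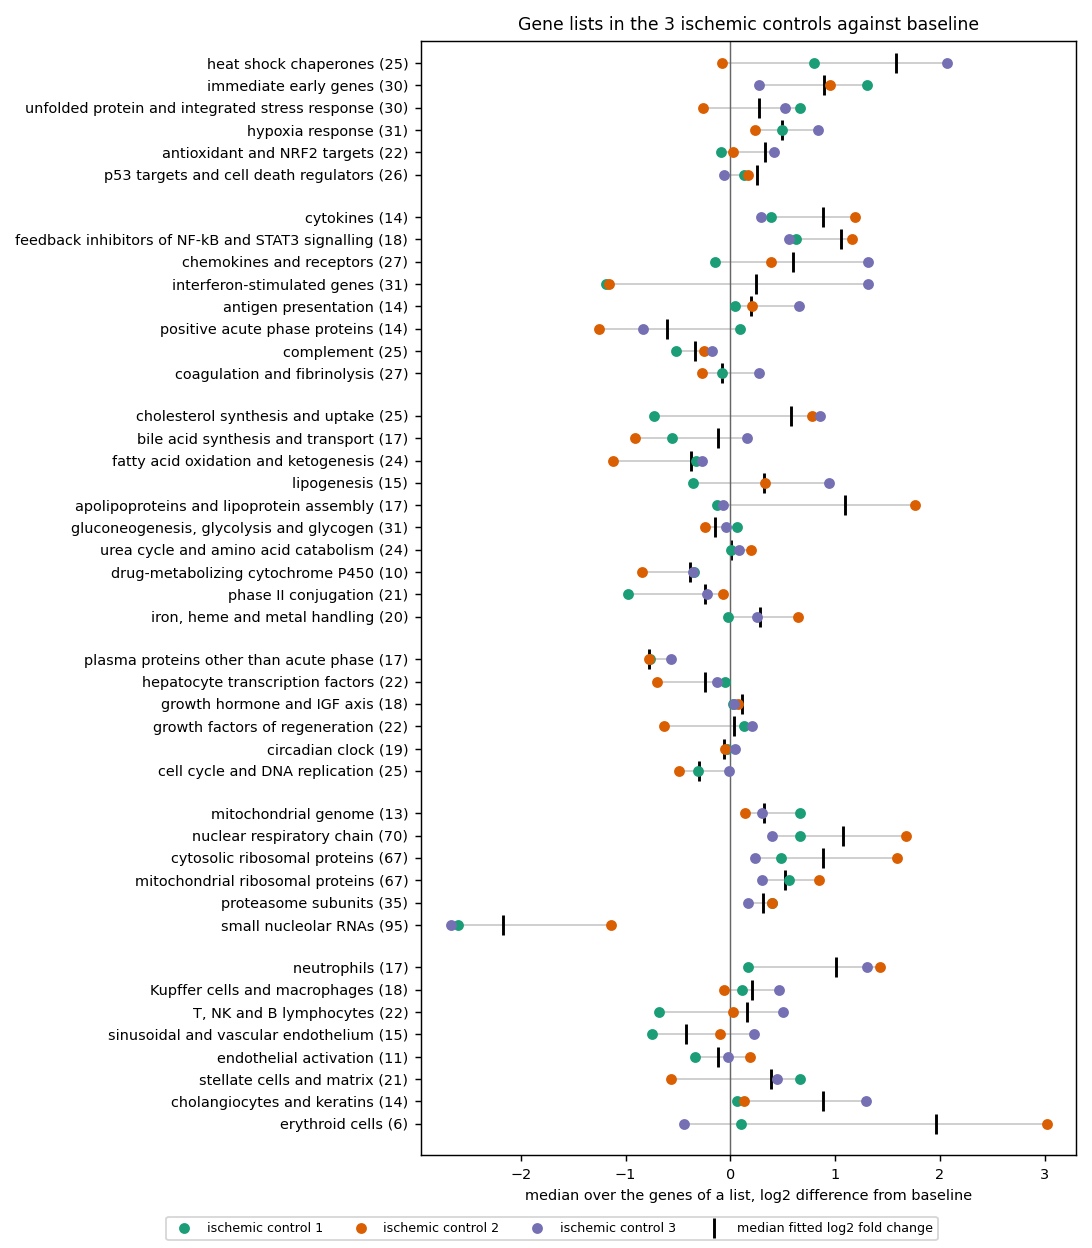
Median log2 difference from baseline over the tested genes of each list, in each ischemic control library (coloured points) and in the edgeR fit (black marks), with the number of genes in parentheses. The coloured points are log2 CPM, counts scaled to the library total of the tested genes after TMM normalization, against the baseline mean. The 95 small nucleolar RNAs that passed the filter on low counts had medians of -2.60, -1.14 and -2.67 in the 3 controls. A gene can pass that filter through 1 group, and with at least 10 counts in every library the fitted median of the members left was 0.30. The stricter filter leaves out members with under 10 counts in a control, so its median cannot show whether the list differed. The ribosomal protein and respiratory chain lists were above baseline in all 3 controls, most of all in control 2.

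Chaperones of the heat shock response, which refold damaged proteins and hold others in solution, were higher in controls at 24 of 25 genes. An unadjusted p under 0.05 was reached by 10 of them, all higher, where 3.16% of all genes did so. All 3 controls were above baseline at 10 genes, and the median log2 fold change was 1.58. The small heat shock protein gene HSPB1 (chromosome 3, 10038074 to 10039441 of Sscrofa11.1) had normalized counts of 327 and 171 at baseline and 987, 12303 and 15609 in ischemic controls 1, 2 and 3. All 3 controls were above baseline, and control 1 was far closer to it than the other two. The log2 fold change of HSPB1 was 5.24 (SE 2.00) and its DESeq2 adjusted p 4.1e-07, the lowest of the named genes. BAG3, the cochaperone that links HSP70 to the small heat shock proteins, had 3501 and 2922 at baseline against 8413, 9421 and 17495 in the controls (log2 fold change 1.87, SE 0.58, DESeq2 adjusted p = 0.0372). HSPE1, the partner of the mitochondrial chaperonin, had 3911 and 3548 at baseline and 6813, 9901 and 13192 after reperfusion (log2 fold change 1.41, SE 0.46). The groups did not overlap at either gene. Among the members with large values in 1 liver, HSPA1L, a member of the HSP70 family, had 6.94 and 6.33 at baseline against 2.37, 3.50 and 113 in the controls, and its log2 fold change of 2.57 (SE 2.24) came from control 3 alone and was -1.15 without that library. HSPA6, the strictly inducible HSP70 gene, had 47.1 and 70.7 at baseline against 64.9, 31.5 and 11202 in the controls, and the lens and muscle chaperone CRYAB had 385 and 275 at baseline against 341, 1716 and 20283 in the controls, again highest in control 3. The medians of the list in controls 1, 2 and 3 were 0.79, -0.08 and 2.07, so control 2 did not share the difference for the list as a whole. The fitted median was 0.38 without control 3. Without control 2 it was 1.54, and 20 genes lay above both baseline libraries, where 20.7% of all genes did so without that library. The constitutive chaperones HSPA8 and HSP90AB1 differed less, with log2 fold changes of 0.51 and -0.27. HSP90AB1 was the only lower gene of the list, and without control 2 all 25 genes were higher.

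Immediate early genes, transcription factors and signalling regulators induced within minutes of a stimulus, were higher in controls at 25 of 30, with 7 at an unadjusted p under 0.05 and a median of 0.89. FOS, a subunit of AP-1, had 622 and 795 at baseline and 2461, 2226 and 1540.0 in ischemic controls 1, 2 and 3, and the groups did not overlap (log2 fold change 1.55, SE 0.82). The nuclear receptor NR4A1 had 77.9 and 276 at baseline against 976, 1601 and 453 in the controls (log2 fold change 2.50, SE 0.70, DESeq2 adjusted p = 0.0283). MAFF, a small MAF protein, had 476 and 686 at baseline and 1225, 2627 and 2322 after reperfusion (log2 fold change 1.81, SE 0.60). The FOS-related gene FOSL1 had 17 and 20.0 at baseline against 41.9, 331 and 259 in the controls (log2 fold change 3.47, SE 1.39, DESeq2 adjusted p = 0.00359), where control 1 was only slightly above baseline. KLF2, a factor of endothelial cells that responds to shear stress, had 173 and 171 at baseline against 512, 737 and 1271 in the controls (log2 fold change 2.28), and the phosphatase DUSP1, which turns off MAP kinases, had 1766 and 1789 at baseline against 4423, 24585 and 3938 in the controls, a log2 fold change of 2.58 that was 1.27 without control 2. In each of these genes the controls were above baseline. Other members stayed close to it, such as EGR1 (log2 fold change 0.76), JUN (0.72) and MYC (-0.51). SGK1, the kinase induced by serum and glucocorticoids, was lower in every control at 13864 and 16073 at baseline against 9757, 4875 and 3004 in the controls. The median of the list was 1.30, 0.96 and 0.27 in controls 1, 2 and 3. The fitted median was 0.45 without baseline 1a, 0.55 without control 1 and 1.44 without baseline 2.

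In the list of the unfolded protein and integrated stress responses, which answer misfolded protein in the endoplasmic reticulum and block of translation, 21 of 30 genes were higher and 6 had an unadjusted p under 0.05, with a median of only 0.27, which ran from 0.042 without control 1 to 0.59 without baseline 2. SDF2L1 and CRELD2 encode proteins of the endoplasmic reticulum that this response induces. SDF2L1 had 529 and 247 at baseline and 1092, 7824 and 4111 in ischemic controls 1, 2 and 3 (log2 fold change 3.44, SE 0.98, DESeq2 adjusted p = 0.000842), and CRELD2 had 1974 and 892 at baseline against 4099, 16313 and 9403 in the controls (log2 fold change 2.75, SE 0.70, DESeq2 adjusted p = 0.004). Both were lowest in control 1 and highest in control 2, and above baseline in each control. PPP1R15A (GADD34), which restores translation by dephosphorylating eIF2 alpha, had 255 and 604 at baseline and 1983, 5724 and 2906 after reperfusion (log2 fold change 3.02). The list did not move as a block, since HSPA5 (BiP), the main chaperone of this compartment, had 32473 and 36824 at baseline against 53667, 6817 and 68066 in the controls, above baseline in controls 1 and 3 and well below it in control 2, for a log2 fold change of 0.33 that was 0.84 without control 2. XBP1, the transcription factor of this response, was below baseline in all 3 controls (log2 fold change -1.03, -0.68 without baseline 2), and the ATF4 targets ASNS, TRIB3 and PSAT1 had values of -0.58, -0.76 and -1.06.

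Genes of the hypoxia response, the targets of hypoxia-inducible factors, were higher at 22 of 31, with a median of 0.49 and 4 at an unadjusted p under 0.05, and the median was 0.85 without baseline 2. STC1, the gene of the secreted glycoprotein stanniocalcin 1 (chromosome 14, 7952175 to 7961365), had 10.0 and 11.6 at baseline and 52.2, 292 and 304 in ischemic controls 1, 2 and 3 (log2 fold change 4.28, SE 1.46, DESeq2 adjusted p = 9.78e-05). EGLN3, a prolyl hydroxylase that marks HIF for degradation and is itself a HIF target, had 60.2 and 34.8 at baseline against 209.6, 371 and 379 in the controls (log2 fold change 2.73, SE 0.82, DESeq2 adjusted p = 0.00153). PFKFB3, which drives glycolysis, had 555 and 263 at baseline and 892, 1084 and 1134 after reperfusion (log2 fold change 1.33, 0.85 without baseline 2). In all of these the groups did not overlap. VEGFA, the gene of the main angiogenic growth factor and a well-known target of the same pathway, went the other way, with 4769 and 5769 at baseline against 3172, 3343 and 2002 in the controls (log2 fold change -0.90, SE 0.57), each control below both baseline libraries. KDM3A, another target, was also below baseline in every control (log2 fold change -1.17), while the glucose transporter gene SLC2A1 was above it (1.18).

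Antioxidant genes and targets of NRF2, the factor that answers oxidative stress, showed no common direction, with 12 of 22 higher, 6 above and 6 below baseline in every control and a median of 0.33. GPX4, which reduces lipid peroxides, had 2013 and 1767 at baseline and 2778, 7036 and 3465 in ischemic controls 1, 2 and 3 (log2 fold change 1.20, SE 0.51), and the value without control 2 was 0.75. GCLC, the catalytic subunit of the rate-limiting enzyme of glutathione synthesis, was lower, at 1419 and 1103 at baseline against 483, 506 and 639.6 in the controls (log2 fold change -1.22, SE 0.58). Below baseline in each control were also the thioredoxin reductase gene TXNRD1 (log2 fold change -1.43, -0.90 without control 2) and the mitochondrial superoxide dismutase gene SOD2 (-1.37, -0.80 without baseline 2). NQO1, the textbook NRF2 target, had 256 and 198 at baseline and 144, 165 and 329.5 after reperfusion, with the groups overlapping. Of the p53 targets and cell death regulators, 0 of 26 had an unadjusted p under 0.05, and the median was 0.26. BAX, a pore-forming protein of apoptosis, had 259.9 and 162 at baseline against 475, 479.8 and 430.0 in the controls (log2 fold change 1.12, SE 0.54), its control values lying close together and above baseline. CDKN1A, the p53 target that halts the cell cycle, had 2526 and 6077 at baseline and 4278, 5880.2 and 3497 after reperfusion, and baseline library 2 was the highest of the 5.

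**Figure D2:**
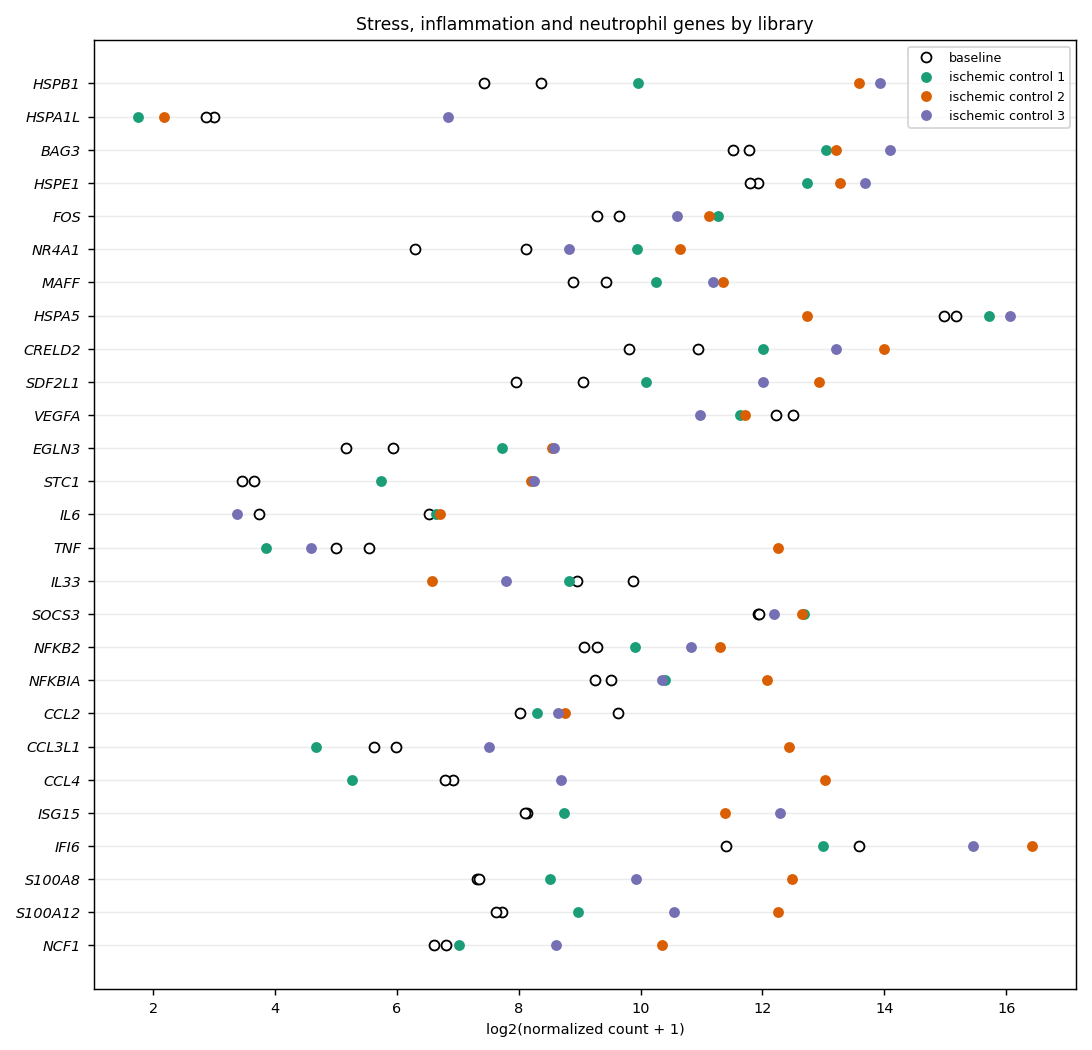
Genes named from the stress, inflammation and neutrophil lists, with log2(normalized count + 1) on the x axis, open circles for the 2 baseline libraries and coloured points for ischemic controls 1, 2 and 3. BAG3, FOS, SDF2L1, EGLN3, STC1 and NFKB2 had all 3 controls above baseline, whereas TNF, CCL3L1 and CCL4 were high in control 2 alone or mainly there.

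Feedback inhibitors of NF-kB and STAT3, which are themselves induced by the pathways they restrain, leaned upward, with 13 of 18 higher, 10 above baseline in every control, 7 at an unadjusted p under 0.05 and a median of 1.06. NFKBIA, which encodes the inhibitor I-kappa-B alpha, had 727 and 609 at baseline and 1343, 4290.2 and 1307 in ischemic controls 1, 2 and 3 (log2 fold change 1.76, SE 0.62, 1.02 without control 2). NFKB2, the precursor of the p52 subunit, had 534 and 623 at baseline against 964, 2511 and 1818 in the controls (log2 fold change 1.59, SE 0.53). SOCS3, the inhibitor of JAK and STAT3 signalling, had 3894 and 3922 at baseline and 6598, 6421 and 4654 after reperfusion (log2 fold change 0.59, SE 0.52), a smaller difference with no overlap. TNFAIP3 (A20), an enzyme that edits ubiquitin to end NF-kB signalling, had 166 and 140.3 at baseline against 502, 1574 and 342 in the controls (log2 fold change 2.36, 1.49 without control 2). Control 2 was highest in NFKBIA, NFKB2 and TNFAIP3, and the median of the list was 0.63 without that library.

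Among the cytokine and chemokine genes that these pathways control, TNF, CCL4 and CCL3L1 differed mostly through control 2. Of 14 cytokine genes, 11 were higher and 1 had an unadjusted p under 0.05. That gene was TNF, with 30.9 and 45.4 at baseline and 13.4, 4887 and 23.1 in ischemic controls 1, 2 and 3: 1 control was above baseline and 2 were below it, and the log2 fold change of 5.35 (SE 1.95) was -1.02 without control 2. IL6 had 12.3 and 90.7 at baseline against 98.9, 103 and 9.39 in the controls, and the groups overlapped. IL33, an alarmin of stromal and endothelial nuclei, was below baseline in every control, at 496 and 943 at baseline and 455, 94.6 and 220.4 after reperfusion (log2 fold change -1.45, SE 0.77, -0.96 without baseline 2). The median of the cytokines was 0.88 and 0.35 without control 2. Of 27 chemokines and chemokine receptors, 4 had an unadjusted p under 0.05, all higher, and 6 lay above baseline in every control. Their median was 0.60, 0.66 without control 2, and -0.15, 0.39 and 1.31 in controls 1, 2 and 3, highest in control 3. CCL4, which attracts monocytes and T cells, had 119.6 and 109.7 at baseline and 37.2, 8372 and 412 in ischemic controls 1, 2 and 3, and CCL3L1 had 62.5 and 48.5 at baseline against 24.5, 5542 and 182 in the controls. Their log2 fold changes of 4.60 and 5.03 became 1.00 and 0.92 without control 2, and control 1 was below baseline for both. CXCL2, which attracts neutrophils, had 16.2 and 44.3 at baseline and 99.7, 289 and 76.6 after reperfusion (log2 fold change 2.33), with each control above baseline. CCL2, the main chemokine for monocytes, had 259.9 and 793 at baseline against 313, 431 and 398 in the controls, with no separation of the groups.

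Interferon-stimulated genes split by liver. Their median was -1.19 and -1.16 in controls 1 and 2 and 1.31 in control 3, and 20 of 31 were higher in the fit, with a median of 0.24. This rested on control 3, without which 6 were higher and the median was -1.12. Above baseline in every control was 1 gene, ISG15 (3.23% of those tested in the list), and 5 were below it in every control (16.1%). Over all genes these shares were 14.8% and 16.3%. ISG15, a ubiquitin-like modifier induced by type I interferon, had 281 and 273 at baseline and 429, 2676 and 5002 in ischemic controls 1, 2 and 3 (log2 fold change 3.27, SE 1.5, DESeq2 adjusted p = 0.004). IFI6, an antiviral gene, had 12229 and 2709 at baseline against 8158, 87627 and 44718 in the controls (log2 fold change 2.59, SE 1.02, 4.08 without baseline 1a), with control 1 between the baseline libraries. MX1, another classic member, had 1601 and 1687 at baseline and 445, 739 and 7688 after reperfusion, highest in control 3. The signal transducer STAT2 was below baseline in every control (log2 fold change -0.93). Of 21 listed genes of antigen presentation, 14 were matched by symbol and tested. Of these 14, 4 were above and 0 below baseline in each control. B2M, the light chain of MHC class I, had 12333 and 8010.0 at baseline against 12503, 37309 and 22698 in the controls (log2 fold change 1.22, SE 0.58), where control 1 was barely above baseline 1a. CD74, the invariant chain of MHC class II, had 5395 and 6380.2 at baseline against 10257, 35544 and 16499 in the controls (log2 fold change 1.79, SE 0.94).

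Of the 23 positive acute phase proteins listed, which the liver secretes in response to IL-6, only 14 were matched by symbol and tested. The members not matched are not described, so these values do not cover the acute phase response as a whole. The 14 did not lean upward at this time, with 5 higher and a median of -0.60, which was -0.32 without control 2 and -0.95 without control 1. The median in control 1 itself was 0.09. CRP had 59739 and 28660.1 at baseline and 59804, 66311 and 70551 in ischemic controls 1, 2 and 3, and control 1 was only just above baseline 1a. CD14, the lipopolysaccharide coreceptor, had 19436 and 17195 at baseline against 25943, 77782 and 20921 in the controls (log2 fold change 1.15, SE 0.55, 0.39 without control 2). STEAP4, a metalloreductase induced by inflammation, was below baseline in every control, with 6066 and 10773 at baseline and 4071, 1180.2 and 3634 after reperfusion (log2 fold change -1.48, SE 0.65). Ceruloplasmin (CP, log2 fold change -1.28, -0.76 without control 2), A2M (-0.92) and LBP, the lipopolysaccharide binding protein (-0.83), were also below baseline in each control. Complement genes were lower at 18 of 25, 9 of them below baseline in every control, with a median of -0.34. C3, the central component, had 373987 and 441611 at baseline against 273191, 438519 and 318596 in the controls, well within the spread of the groups. The terminal and regulatory members C5 (log2 fold change -0.76), CFI (-0.99) and C4BPA (-1.18) were lower in each control. Among the members above baseline in each control were 2 that myeloid cells also make. CFD, the protease factor D, had 447 and 629 at baseline against 816, 3648 and 1184 in the controls (log2 fold change 1.77, SE 0.67), and CFP, properdin, had 1095 and 622 at baseline and 1106, 2902 and 1874 after reperfusion (log2 fold change 1.16, SE 0.47). The value of CFP was 0.77 without baseline 2. Without control 2 the values were 0.93 and 0.82.

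Of 27 genes of coagulation and fibrinolysis, 11 were higher and 16 lower, with a median of -0.08. PLAUR, the urokinase receptor, had 367 and 768 at baseline and 921, 2837 and 1249 in ischemic controls 1, 2 and 3 (log2 fold change 1.53, SE 0.74, 0.97 without control 2), each control above both baseline libraries. F2, prothrombin, had 46944 and 49299.6 at baseline and 54744, 34211 and 47999 after reperfusion, with no separation. Among hepatocyte-made factors and inhibitors below baseline in every control were PROS1 (log2 fold change -1.22, -0.81 without control 2), F5 (-1.08), KLKB1 (-1.0), SERPINC1, antithrombin (-0.80), and PLG, plasminogen (-0.65).

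Genes of cholesterol synthesis and uptake, which SREBP2 activates when cells lack sterol, were higher at 21 of 25 with a median of 0.58, yet 2 were above baseline in every control. Control 1 went the other way, with medians of -0.73, 0.78 and 0.85 in controls 1, 2 and 3. IDI1, an isomerase of the isoprenoid steps, had 673 and 642 at baseline and 331, 6232 and 4877 in ischemic controls 1, 2 and 3 (log2 fold change 2.50, SE 1.06), and the later enzyme MSMO1 had 867 and 738 at baseline against 479, 2996 and 3302 in the controls (log2 fold change 1.46, SE 0.77). At both genes control 1 was below baseline and controls 2 and 3 above it. Lipogenic genes had the same order of livers, with medians of -0.36, 0.33 and 0.94. FASN, the fatty acid synthase, had 3198 and 1339.7 at baseline against 1922, 5103 and 7289 in the controls (log2 fold change 1.05, SE 0.74, 0.52 without baseline 2), and 0 of 15 lipogenic genes lay above baseline in every control.

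Fatty acid oxidation and ketogenesis genes, which serve the fasting liver, were lower at 18 of 24, with 9 below baseline in every control, 3 at an unadjusted p under 0.05 in this direction (1.21% of all genes) and a median of -0.38. CPT1A, the gate for fatty acids into mitochondria, had 5781 and 11709 at baseline and 3047, 2516 and 2250.4 in ischemic controls 1, 2 and 3 (log2 fold change -1.74, SE 0.68). ACSL1, which activates long-chain fatty acids, had 4956 and 12349 at baseline against 2487, 2935 and 2279 in the controls (log2 fold change -1.75, SE 0.81, -1.0 without baseline 2). The controls lay close together at both genes, and the baseline libraries differed by more than the controls did. PLIN2, which coats lipid droplets, had 5454 and 26672 at baseline and 4906, 2483 and 2015 after reperfusion (log2 fold change -2.33, -0.83 without baseline 2), and FGF21, a fasting hormone, had 186 and 743 at baseline against 179, 85.8 and 85.3 in the controls (-1.96, -0.70 without baseline 2). BDH1, the last enzyme of ketone body synthesis, was below baseline in each control too (-1.86). Bile acid genes went both ways, with 8 of 17 higher and 9 lower, 6 of the latter below baseline in every control. Their median of -0.12 was -0.72 without control 3 and 0.17 without control 1. ABCC3, an export pump of the sinusoidal membrane, had 2625 and 3034 at baseline and 1205, 382 and 692 in ischemic controls 1, 2 and 3 (log2 fold change -1.87, SE 0.81), and ABCB11, the bile salt export pump of the canaliculus, had 1037 and 1553 at baseline against 248, 238 and 959.7 in the controls (log2 fold change -1.42, SE 0.72, -2.39 without control 3). ABCB11 was close to baseline in control 3 and far lower in the other two. The sterol hydroxylase CYP8B1 (log2 fold change -1.87) and NR1H4, the bile acid receptor FXR (-0.96), were below baseline in each control, and the uptake transporter SLC10A1 had a log2 fold change of -0.19.

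Apolipoprotein genes were set mainly by control 2: their median was 1.10 in the fit and -0.11 without that library, and -0.13, 1.76 and -0.07 in controls 1, 2 and 3. APOE had 241740.2 and 197489 at baseline and 337238, 2009239.8 and 417883 in ischemic controls 1, 2 and 3 (log2 fold change 2.02, SE 0.92, 0.81 without control 2), and APOA2 had 2137 and 2691 at baseline against 6671, 23419 and 3933 in the controls (log2 fold change 2.19, SE 0.73, 1.17 without control 2). Both were above baseline in each control, as was APOC3, an inhibitor of lipoprotein lipase (log2 fold change 2.55, 1.12 without control 2). APOB, the scaffold of very low density lipoprotein and a far longer gene, had 58505 and 96136 at baseline and 79882, 37659 and 41015 after reperfusion (log2 fold change -0.53, SE 0.64), and MTTP, which loads lipid on it, was below baseline in every control (-0.53).

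Genes of glucose metabolism went both ways. Of 31 such genes, 14 were higher, 7 of them in every control, and the median was -0.15. The glycolytic enzyme ALDOA had 6906 and 3481 at baseline and 14473, 26027 and 11739.8 in ischemic controls 1, 2 and 3 (log2 fold change 1.72, SE 0.59), with no overlap. Above baseline in each control were also PKM (log2 fold change 1.19), TPI1 (1.29), GAPDH (0.83) and ENO1 (0.53), all enzymes of glycolysis. LDHA, which makes lactate, had 2038 and 1631 at baseline against 7971, 1999.8 and 4048 in the controls (log2 fold change 1.37, SE 0.59, 0.70 without control 1), with control 2 at the baseline level. PCK1, the key enzyme of gluconeogenesis, had 30986 and 48490.5 at baseline and 23410.2, 46283 and 50042 after reperfusion, with no difference between the means beyond the spread. SLC2A2, the hepatocyte glucose transporter, GBE1, the glycogen branching enzyme, and PYGL, glycogen phosphorylase, were below baseline in each control, with log2 fold changes of -0.82, -1.03 (-0.65 without control 2) and -0.48. For urea cycle and amino acid genes 12 of 24 were higher and 12 lower. HGD, of tyrosine breakdown, had 975 and 719 at baseline against 2157, 4682 and 2377 in the controls (log2 fold change 1.83, SE 0.67), and the transaminase GOT1 had 906 and 745 at baseline and 2297, 1392 and 1476 after reperfusion (log2 fold change 1.07, SE 0.49). SDS, serine dehydratase, had 1295 and 602 at baseline against 4179, 14068 and 1595 in the controls (log2 fold change 2.75, 1.63 without control 2). These 3 were above baseline in each control. Within the urea cycle itself ARG1 (1.04) and ASS1 (1.05, 0.55 without control 2) were above baseline and OTC (-0.93) and NAGS (-0.95) below it in every control, while CPS1, the first enzyme, had 25301 and 41894 at baseline against 60062, 19670.1 and 18592 in the controls and no separation.

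Drug-metabolizing cytochrome P450 genes gave 0 above and 0 below baseline in every control of 10 tested, with a median of -0.39. The list held 18 genes, and those not matched by symbol are not described. CYP2E1 had 43946 and 45126 at baseline and 13643, 47570.3 and 49627 in ischemic controls 1, 2 and 3, where only control 1 was low. CYP1A1, a target of the aryl hydrocarbon receptor, had 1229 and 179 at baseline against 13683, 84.1 and 138 in the controls, so its log2 fold change of 2.76 (SE 1.75) came from control 1 and was -2.70 without it. Phase II conjugation genes were lower at 14 of 21, 5 of them in every control (23.8% of the list, 16.3% of all genes). At an unadjusted p under 0.05 in edgeR, 0 were higher and 0 lower. The median was -0.24, and 0.020 without control 1. SULT1E1, the estrogen sulfotransferase, had 1617 and 2668 at baseline and 718, 1087 and 1255 after reperfusion (log2 fold change -1.07, SE 0.61, -0.72 without baseline 2), and NNMT, which methylates nicotinamide, was above baseline in each control, with 58162 and 48667 at baseline against 89532, 144614 and 69932 in the controls (log2 fold change 0.91, SE 0.48). Among iron and metal genes TFRC, the transferrin receptor, was below baseline in each control, with 7429 and 8217 at baseline against 3708, 2147 and 1033 in the controls (log2 fold change -1.76). The metallothionein MT1A had 25004 and 13194 at baseline and 20889, 245821 and 35525 after reperfusion (log2 fold change 2.33, SE 0.89, 0.59 without control 2), and hepcidin (HAMP), the hormone of iron balance, had 1732 and 11296 at baseline against 4637, 26034 and 5435 in the controls. Both were set by control 2.

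**Figure D3:**
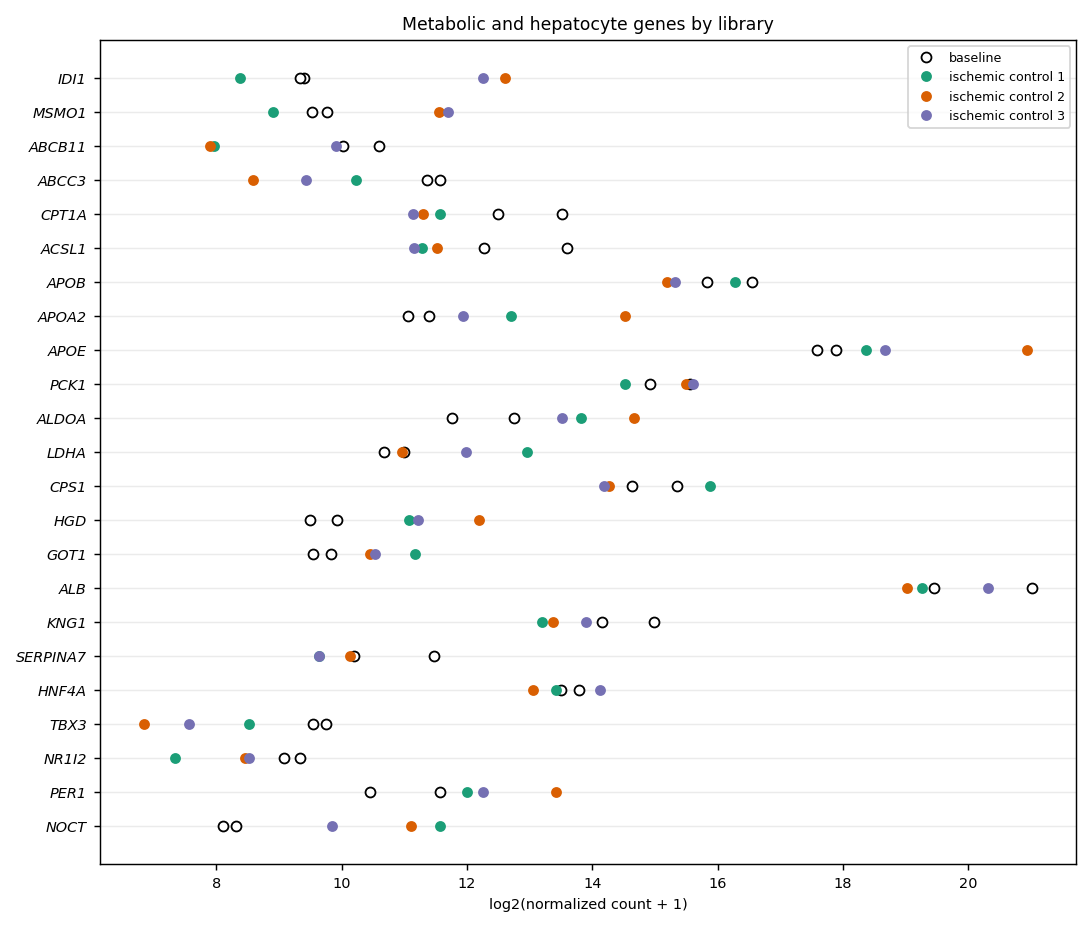
Genes named from the lipid, glucose, amino acid, plasma protein, transcription factor and clock lists, with log2(normalized count + 1) on the x axis, open circles for baseline and coloured points for ischemic controls 1, 2 and 3. CPT1A, ACSL1, ABCC3, TBX3 and NR1I2 lay below baseline in all 3 controls, ALDOA, HGD and NOCT above it in all 3, and PCK1, CPS1 and HNF4A overlapped with it.

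Plasma proteins other than acute phase proteins were lower at 11 of 17 genes, 9 of them below baseline in every control, where 16.3% of all genes were. The median was -0.77 in the fit and -0.76, -0.77 and -0.57 in controls 1, 2 and 3, so the list medians of the 3 livers were close together. Without baseline 2 the fitted median was -0.43. KNG1, kininogen, had 18244 and 32297 at baseline and 9399.8, 10636 and 15254 in ischemic controls 1, 2 and 3 (log2 fold change -1.10, SE 0.51, -0.68 without baseline 2), and SERPINA7, the thyroxine binding globulin, had 1173 and 2834 at baseline against 797, 1124 and 792 in the controls (log2 fold change -1.15, SE 0.59, -0.43 without baseline 2). Transferrin (TF, log2 fold change -1.46), fetuin A (AHSG, -0.92), the vitamin D binding protein GC (-0.67) and ITIH2 (-1.52, -0.85 without baseline 2) were below baseline in each control as well. Albumin (ALB) had 716391 and 2126054 at baseline and 630487, 530402 and 1308985 after reperfusion (log2 fold change -0.77, SE 0.69), but its baseline libraries lay on either side of control 3. The log2 fold change of ALB turned to 0.16 without baseline 2. Transcription factors of hepatocyte identity were lower at 15 of 22, with 3 at an unadjusted p under 0.05 in that direction. HNF4A, the master regulator, had 14171 and 11553 at baseline and 10969, 8512 and 17815 in ischemic controls 1, 2 and 3 and did not separate. TBX3, a factor of hepatocytes near the central vein, had 745 and 858 at baseline against 367, 114 and 187 in the controls (log2 fold change -1.82, SE 0.63), and NR1I2, the xenobiotic receptor PXR, had 541 and 642 at baseline and 161, 350.2 and 367 after reperfusion (log2 fold change -1.03, SE 0.46). Both lay below baseline in every control. RXRA, the shared partner of many nuclear receptors, was above it at 1974 and 1169.9 at baseline against 3770.4, 5658 and 4682 in the controls (log2 fold change 1.56), as was CEBPB, a factor of the acute phase and of regeneration (1.47).

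In the growth hormone and IGF axis 2 of 18 genes were above and 0 below baseline in every control. CISH, a feedback inhibitor of this receptor family, had 646 and 437 at baseline and 1066, 1823 and 838 in ischemic controls 1, 2 and 3 (log2 fold change 1.18, SE 0.48), and IGF1 had 301 and 172 at baseline against 235, 179 and 233 in the controls, with no separation. Among growth factors HBEGF, a ligand of the EGF receptor, had 49.4 and 96.0 at baseline and 189.9, 287 and 515 after reperfusion (log2 fold change 2.19, SE 0.95, DESeq2 adjusted p = 0.0435), and INHBE, the hepatocyte inhibin beta E chain, was below baseline in each control, with 359 and 412 at baseline against 147, 17.5 and 145 in the controls (log2 fold change -1.86, SE 0.89). HGF, the hepatocyte growth factor, had 869 and 2291 at baseline against 2866, 756 and 796 in the controls and overlapping groups. Cell cycle and DNA replication genes had 0 higher and 0 lower of 25 at an unadjusted p under 0.05 and a median of -0.30, which was 0.44 without baseline 1a and -0.70 without baseline 2. TOP2A, the topoisomerase of dividing cells, had 313 and 69.6 at baseline and 112, 28 and 137 after reperfusion, with baseline 1a the highest of the 5. In the circadian clock list the median was -0.06. NOCT (nocturnin, chromosome 8, 87885411 to 87909231), a phosphatase of NADP with a daily rhythm in liver, had 275 and 319 at baseline against 3029, 2194 and 916 in the controls (log2 fold change 2.79, SE 0.58). It had the lowest unadjusted edgeR p among the named genes, 0.000256, with an adjusted p of 0.978, while the DESeq2 adjusted p was 0.00127. The clock gene PER1, which glucocorticoids also induce, had 3028 and 1396 at baseline against 4098, 10930.4 and 4890.3 in the controls (log2 fold change 1.55, SE 0.68). For the core clock the log2 fold changes were -0.61 for BMAL1, -0.28 for CLOCK, -0.44 for NR1D1 and -1.14 for PER2, and the last was -0.55 without baseline 2. The time of day of each sample is not given in the sources used here.

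Genes of the organelle machinery mostly lay on 1 side of baseline. Of 70 nuclear genes of the respiratory chain 66 were higher, 48 of them above baseline in every control, where 14.8% of all genes were, and the median was 1.08. The cytosolic ribosomal proteins were higher at 66 of 67, 39 in every control, with a median of 0.88, and the mitochondrial ribosomal proteins at 55 of 67, 33 in every control, with a median of 0.52. Each of these medians was largest in control 2, at 1.68, 1.59 and 0.85, and was above 0 in controls 1 and 3 too, at 0.67 and 0.40 for the respiratory chain and 0.48 and 0.23 for the cytosolic ribosome. Without control 2 the fitted medians were 0.53, 0.37 and 0.43. NDUFA1, a subunit of complex I, had 281 and 333 at baseline and 483, 2751 and 515 in ischemic controls 1, 2 and 3 (log2 fold change 1.98, SE 0.69, 0.73 without control 2). RPL28, of the large ribosomal subunit, had 7039 and 7534 at baseline against 13869, 68552 and 15061 in the controls (log2 fold change 2.11, SE 0.78, 1.02 without control 2). MRPS12, of the small mitochondrial subunit, had 364 and 167 at baseline and 796, 1054 and 512 after reperfusion (log2 fold change 1.55, SE 0.55), with the 3 controls closer together. Ribosomal proteins have many processed copies in mammalian genomes, and how reads with several places were counted is not given in the sources used here. Proteasome subunits were higher at 25 of 35 with a median of 0.31. PSMB3 had 1505 and 1156 at baseline against 2448, 5689 and 1813 in the controls (log2 fold change 1.29, SE 0.57, 0.71 without control 2) and PSMA1 had 1894 and 1978 at baseline and 2479, 692 and 1628 after reperfusion, where control 2 was the lowest library. Of the 13 messages of the mitochondrial genome 3 were above and 3 below baseline in every control. COX3, of complex IV, had 249377 and 171476 at baseline against 324971, 362856 and 403564 in the controls (log2 fold change 0.78, SE 0.59), and ND5, of complex I, had 111689.7 and 102259.8 at baseline against 79002, 29893 and 17692 in the controls (log2 fold change -1.32, -2.22 without control 1).

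The span of a gene moved with these values. Over the genes with RefSeq coordinates, the median log2 fold change was 0.53 in the quintile with the shortest span, up to 9.33 kb, and then 0.16, -0.07, -0.25 and -0.21 in the next quintiles up to the longest, from 88.7 kb. In control 2 the medians of the shortest and longest quintiles were 0.74 and -0.72, in control 1 they were 0.22 and 0.04 and in control 3 0.38 and -0.15. Without control 2 the fitted medians of these quintiles were 0.32 and -0.05. The median span was 4.06 kb for the cytosolic and 7.40 kb for the mitochondrial ribosomal proteins, 3.05 kb for the apolipoproteins and 13.2 kb for the heat shock chaperones. The part of gene span in the list values was not tested.

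**Figure D4:**
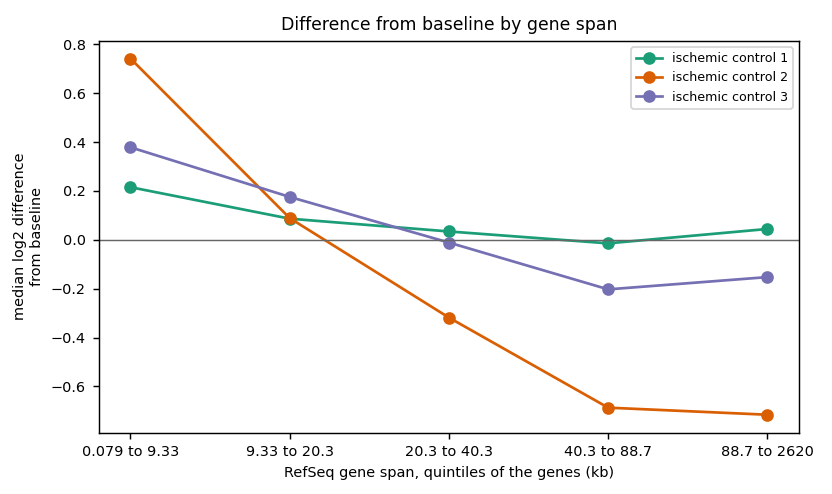
Median log2 difference from the baseline mean (log2 CPM) in quintiles of the genes by RefSeq gene span in kb, for each ischemic control library. Control 2 ran from 0.74 in the shortest quintile to -0.72 in the longest, and controls 1 and 3 sloped the same way by less.

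Small nucleolar RNAs, short guides that direct the chemical modification of ribosomal RNA and mostly lie in introns of host genes, were the lowest list. Of 172 with a row in the table, 95 passed the filter on low counts, 74 of these were lower in controls, 59 were below baseline in every control, and DESeq2 called 20 lower, of the 63 genes it called in that direction. The filter passes a gene with counts in 1 group, so this share describes only the RNAs that passed. The median was -2.17 and -2.90 without control 2. SNORA73, a box H/ACA member also known as U17, had 168 and 159 at baseline and 13.4, 14 and 5.06 in ischemic controls 1, 2 and 3 (DESeq2 adjusted p = 0.000111), and SNORD43 had 79.5 and 65.4 at baseline against 2.37, 5.25 and 2.17 in the controls (DESeq2 adjusted p = 0.000842). SNORA63 had 68.7 and 61.2 at baseline and 0.79, 0 and 5.06 after reperfusion, SNORA9 had 94.1 and 87.6 at baseline against 11.9, 0 and 10.8 in the controls, and the first of the list, SNORA1, had 81.0 and 84.4 at baseline and 7.12, 33.3 and 16.6 after reperfusion. In each the baseline libraries were alike and the controls far lower. SNORD69 and SNORD19 had at most 5.25 and 3.50 normalized counts in a control. For 6 members no control library held a read. SNORD45A had 43 and 30 reads at baseline and SNORA4 had 37 and 26. With each control count of 0 set to 3 reads, taken as an upper limit for its counting error, they were 9.93-fold and 8.57-fold lower. SNORA51, with 55 and 47 reads at baseline, was 14.1-fold lower by the same setting. Counting error at baseline and the spread between livers do not enter these folds. Libraries were made from RNA bound on poly-T beads, which catch these RNAs only in part because most carry no poly(A) tail. When genes needed at least 10 counts in every library, the median of the members that were left was 0.30. This filter leaves out every member with under 10 counts in any library, so it removes RNAs that were low in controls. Its median therefore cannot show whether the list differed.

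Markers of the cell types that whole liver holds differed as follows. The summed level of 19 neutrophil markers was 227 and 126 CPM (counts scaled to the library total) at baseline and 209, 585 and 343 in controls 1, 2 and 3, so control 1 lay within the baseline range. Of the 17 tested, 15 were higher, 3 at an unadjusted p under 0.05. The alarmin genes S100A8 and S100A12, of calcium-binding proteins of the neutrophil cytosol, were above baseline in each control. S100A8 had 158 and 161 at baseline and 365, 5752 and 973 in ischemic controls 1, 2 and 3 (log2 fold change 3.83, SE 1.44, DESeq2 adjusted p = 0.00186, 2.09 without control 2), and S100A12 had 209.8 and 196 at baseline against 502, 4912 and 1499.5 in the controls (log2 fold change 3.45, SE 1.18, DESeq2 adjusted p = 0.00169). NCF1, a subunit of the oxidase that makes superoxide, had 111 and 97.1 at baseline and 128, 1303 and 389.5 after reperfusion (log2 fold change 2.49, SE 0.90, 1.34 without control 2). The granule genes LTF (log2 fold change 1.62) and MMP9 (2.60) were higher in the fit, and ELANE (0.47), CD177 (-0.33) and ITGAM (-0.17) were small or negative.

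Macrophage markers summed to 2610 and 1591 CPM at baseline and 2582, 4409 and 3193 in controls, but the sum was carried by abundant members. Of the 18 tested, 10 were higher and 8 lower, 5 above baseline in every control, and the medians in controls 1, 2 and 3 were 0.12, -0.06 and 0.46. C1QA and C1QB, complement genes made by Kupffer cells, were above baseline in each control. C1QA had 6267 and 3874 at baseline and 7108, 18969.6 and 11901 in ischemic controls 1, 2 and 3 (log2 fold change 1.29, SE 0.45), and C1QB had 5373 and 3653 at baseline against 7036, 15317 and 11878 in the controls (log2 fold change 1.31, SE 0.45). CD163, the scavenger receptor for hemoglobin, had 9441 and 5276 at baseline and 9303, 4534 and 6900.1 after reperfusion and no separation, and MRC1, the mannose receptor that sinusoidal endothelium also carries, was below baseline in each control (log2 fold change -1.13). Lymphocyte markers summed to 110 and 70.9 at baseline and 58.5, 141 and 170 in controls, an overlap. Of the 22 tested, 14 were higher and 8 lower, 1 above and 2 below baseline in every control, with a median of 0.16 that was -0.063 without control 2. NKG7, of cytotoxic granules, had 181 and 149 at baseline against 149, 902 and 608 in the controls (log2 fold change 1.71, SE 0.78). Endothelial markers summed to 878 and 905 at baseline and 503, 723 and 854 in controls. Of the 15 tested, 6 were higher and 9 lower, 1 above and 4 below baseline in every control. OIT3, which is made by sinusoidal endothelium (chromosome 14, 75726353 to 75753461), had 1358 and 1640.4 at baseline and 309, 303 and 383 in ischemic controls 1, 2 and 3 (log2 fold change -2.18, SE 0.91, DESeq2 adjusted p = 0.004), with the 3 controls close together. KDR, the main VEGF receptor (log2 fold change -1.22), and TEK, the angiopoietin receptor (-1.34), were below baseline in each control, RAMP2 was above it at 373 and 445 at baseline against 698, 1952 and 789.9 in the controls (log2 fold change 1.46, SE 0.54, 0.90 without control 2), and PECAM1 (-0.45) and CDH5 (0.05) did not separate. Of the 11 genes of endothelial activation 0 lay above baseline in every control. The cyclooxygenase PTGS2 had 47.8 and 146 at baseline and 783, 156 and 138 after reperfusion, with only control 1 clearly high, and ICAM1 had a log2 fold change of -0.12.

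Stellate cell and matrix markers summed to 4995 and 5266 CPM at baseline and 4689, 1380 and 5072 in controls, with control 2 low. Of the 21 tested, 13 were higher and 8 lower, 5 above and 3 below baseline in every control. The medians in controls 1, 2 and 3 were 0.67, -0.56 and 0.44. Among the members higher in the fit were the collagen genes COL6A1 and COL1A1. COL6A1 had 371 and 1259.6 at baseline and 3303, 2737 and 6979 in ischemic controls 1, 2 and 3 (log2 fold change 2.43, SE 1.03, DESeq2 adjusted p = 0.0228), and COL1A1 had 1834 and 2829 at baseline against 10109, 2719 and 20604 in the controls (log2 fold change 2.28, SE 1.09, 1.49 without control 3), with control 2 within the baseline range. ACTA2, the actin of contractile cells (log2 fold change -1.38), and FN1, fibronectin (-1.28), were below baseline in each control. Keratin and cholangiocyte markers summed to 5105 and 3941 at baseline and 7594, 13794 and 4174 in controls, mostly through KRT18, a keratin of hepatocytes as well, with 36388 and 30145 at baseline and 66266, 213736 and 30456 after reperfusion. Of the 14 tested, 12 were higher and 2 lower, 1 above and 0 below baseline in every control. KRT19, of bile ducts, had 64.8 and 50.6 at baseline against 55.4, 169.9 and 262 in the controls (log2 fold change 1.47, SE 0.78, 0.97 without control 3). Erythroid markers summed to 42.6 and 66.4 at baseline and 113, 882 and 58.0 in controls. HBB, beta globin, had 841 and 1518 at baseline against 2726, 28228 and 1298 in the controls (log2 fold change 3.13, SE 1.36, 0.81 without control 2), with control 2 far above the other 4 libraries. Hepatocyte markers summed to 51395 and 98049 at baseline and 39496, 36159 and 75883 in controls, within or below the baseline range. The part that these cell type differences had in the other values was not tested.

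**Figure D5:**
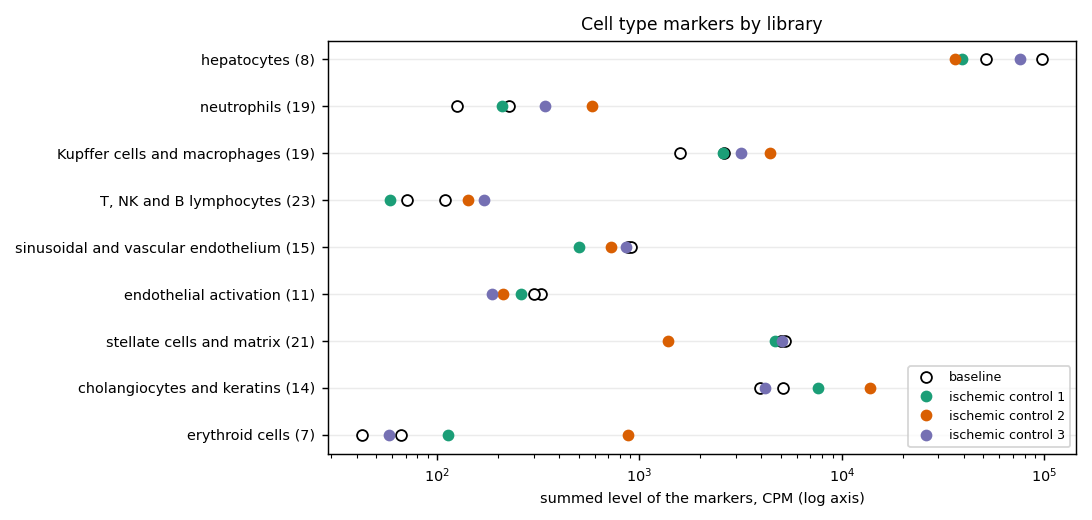
Summed level of the markers of each cell type in CPM (log axis), with the number of markers in parentheses, open circles for baseline and coloured points for ischemic controls 1, 2 and 3. By these sums, which abundant members can set, control 2 was the highest library for neutrophil, macrophage, keratin and erythroid markers and the lowest for stellate cell and hepatocyte markers. By the median over the markers control 3 was the highest control for macrophages (0.46) and keratins (1.30).

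Over all genes, DESeq2's 105 higher genes included 79 with a symbol, and 81 had an unadjusted edgeR p under 0.05. Its 63 lower genes included 37 with a symbol, 20 of them small nucleolar RNAs, and 47 had such a p. The groups did not overlap at 100 and 63 of them. Beside HSPB1, STC1, S100A8 and FOSL1, the higher genes with the largest log2 fold change were XRCC2, TMEM52, HTRA3, TMEM238, NKX6-3 and PTPRZ1. XRCC2, of homologous recombination repair (chromosome 18, 4808428 to 4834281), had 28.5 and 5.27 at baseline and 356, 339.7 and 84.6 in ischemic controls 1, 2 and 3 (log2 fold change 3.9, SE 1.13, DESeq2 adjusted p = 0.000798). HTRA3, a secreted serine protease, had 38.6 and 35.9 at baseline against 88.6, 531 and 719.8 in the controls (log2 fold change 3.56, SE 1.57). Controls 1 and 2 were the highest for XRCC2, and controls 2 and 3 for HTRA3. TMEM52 had 8.48 and 7.38 at baseline and 50.6, 560.4 and 18.1 after reperfusion, and TMEM238 had 106 and 101 at baseline against 167, 3175 and 434 in the controls, both membrane protein genes with most of the signal in control 2, and their log2 fold changes of 4.63 and 3.53 were 2.13 and 1.56 without it. The homeobox gene NKX6-3 and the receptor phosphatase gene PTPRZ1 had at most 9.49 normalized counts at baseline and between 12.7 and 166 in controls.

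Apart from small nucleolar RNAs, the lower genes with the largest log2 fold change were SLC17A3, EFCAB10, SLC17A2 and ADAMTS6. SLC17A2 (chromosome 7, 20596547 to 20663498) and SLC17A3 (chromosome 7, 20591797 to 20643754) are anion transporter genes of 1 family, of which SLC17A3 handles urate. Their RefSeq spans overlap and the libraries do not mark strand, so reads of one could be counted for the other. SLC17A2 had 447 and 2477 at baseline and 99.7, 78.8 and 244 in ischemic controls 1, 2 and 3 (log2 fold change -3.35, SE 1.44, DESeq2 adjusted p = 0.00249), and SLC17A3 had 76.4 and 433 at baseline against 9.49, 1.75 and 27.5 in the controls (log2 fold change -4.22, SE 1.52, DESeq2 adjusted p = 0.00177). At both genes baseline 2 was far above baseline 1a, and without baseline 2 the log2 fold changes were -1.70 and -2.55. ADAMTS6, a secreted metalloprotease (chromosome 16, 43702519 to 44010820), had 169.7 and 461 at baseline and 29.3, 31.5 and 39.0 after reperfusion (log2 fold change -3.23, SE 0.89, DESeq2 adjusted p = 0.000583), with the 3 controls close together. EFCAB10 had 54.8 and 66.5 at baseline against 5.54, 3.50 and 3.61 in the controls. In exact permutation tests on single genes 2 libraries against 3 cannot give a p under 0.1, so none could pass 0.05.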

How the data were processed

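Messenger RNA of liver tissue was captured by poly-T beads for paired-end libraries that do not mark strand. The authors aligned the reads (HISAT2, Sscrofa11.1), obtained gene counts with FeatureCounts on Ensembl genes, and deposited them unnormalized, 1 column per library. Tool versions, the strand setting and the treatment of reads with several places are not given in the sources used here. For the RNA extraction kit the paper's sequencing methods and the labels differ. Of 35670 genes in the table, 17640 carried a symbol there and 119 more were matched in a table of gene names, and the 17911 without a symbol were tested but are not named. Coordinates and spans are of RefSeq Sscrofa11.1, for 14632 genes matched by symbol. The labels gave the groups and the replicate numbers.

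Tests used R 4.3.3 and edgeR 4.0.16 (filterByExpr, TMM, quasi-likelihood test), with p-values adjusted by Benjamini-Hochberg over all genes at a threshold of 0.05, with all 13 libraries in 4 groups and the contrast of ischemic controls with baseline. The standard error is the log2 fold change divided by the square root of F. DESeq2 1.42.0 gave size factors and, over the 5 libraries, the alternative test that the paper's methods name. Exact permutation tests were two-sided on log2(normalized count + 1). The tests were tried on simulated data. No 2 libraries of a group were copies of each other. Counts are reads without molecular identifiers, so the folds given for counts of 0 allow for counting error of the 0 only, and p-values measure the spread between these libraries.

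The comparison and the gene lists were chosen with earlier results of these data known, so lists are described by counts and medians and none was tested. Named genes are, for each list, its first gene tested and the 2 with the lowest unadjusted edgeR p and a mean normalized count of at least 10, and over all genes the 10 higher and 10 lower genes with the largest log2 fold change among those that DESeq2 called, with no overlap and a mean of at least 50. This rule left out 16 genes that the paper's text names, and a few genes that it would name are not reported here. The alternatives were DESeq2 over 13 or 5 libraries, edgeR over 5, RLE and upper quartile normalization, no filter or a minimum of 10 counts per library, removal of mitochondrial and small RNA genes, the replicate number as a block, each library left out, and, added after the data were seen, the 4 libraries that stood apart left out. A planned search of promoters for motifs was not made, and no sequence is used here.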

Additional observations from a re-analysis of the deposited data

How the results depend on the processing

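The count of 0 genes past the threshold was also 0 in edgeR over the 5 libraries, with RLE or upper quartile normalization, with at least 10 counts in every library, with mitochondrial and small RNA genes removed, without any 1 library and without the 4 libraries that stood apart, with 127 to 1724 genes at an unadjusted p under 0.05. DESeq2 over the 13 libraries called 6 genes, DESeq2 over the 5 libraries 168, and edgeR without the filter on low counts 30. With the replicate block it was 0 as well, with 1129 genes at an unadjusted p under 0.05 against 720. Baseline and controls share only 2 numbers, and the labels do not say which pigs the baseline biopsies came from, so the numbers were not taken to pair the livers. The deviations of same-numbered libraries from their group means had r = -0.089 and -0.088. With 2 baseline libraries these deviations mirror each other at baseline, so the r values cannot decide whether libraries share a pig. No setting moved the median of all genes by more than 0.1 on the log2 scale. The cause of the changes below was not tested. The precision is limited by 2 baseline libraries and by the depth at low counts.

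Without the 4 libraries that stood apart (ischemic control 2, arterial infusion 1 and portal infusions 1 and 4, left out after the data were seen), the list median was -0.033 for p53 targets and cell death regulators, 0.34 for cytokines, 0.62 for feedback inhibitors of NF-kB and STAT3 signalling, -0.13 for apolipoproteins and lipoprotein assembly, -0.077 for urea cycle and amino acid catabolism, -0.042 for growth hormone and IGF axis, -0.091 for growth factors of regeneration, 0.041 for circadian clock, -0.54 for cell cycle and DNA replication, -0.084 for T, NK and B lymphocytes, -0.54 for endothelial activation and -0.34 for erythroid cells, and the log2 fold change turned to 0.066 for NQO1, -0.12 for CDKN1A, -1.04 for TNF, 0.11 for F2, 0.26 for CPS1, -0.34 for HAMP, 0.17 for HNF4A, 0.25 for HGF, 0.10 for PSMA1, 0.15 for CD163 and -0.34 for AHSP. With the replicate block, the list median was 1.65 for cytokines, -1.17 for interferon-stimulated genes, 0.19 for urea cycle and amino acid catabolism, -1.0 for plasma proteins other than acute phase, 0.059 for growth hormone and IGF axis, -0.096 for growth factors of regeneration, -0.14 for circadian clock, -2.81 for small nucleolar RNAs, -0.17 for Kupffer cells and macrophages, -0.064 for T, NK and B lymphocytes and 0.25 for cholangiocytes and keratins, and the log2 fold change turned to 0.13 for NQO1 and 0.17 for CPS1. With at least 10 counts in every library, the list median was 0.046 for cytokines, 0.020 for bile acid synthesis and transport, -0.029 for urea cycle and amino acid catabolism, 0.030 for growth hormone and IGF axis and 0.30 for small nucleolar RNAs. That setting leaves out members with under 10 counts in any library, such as the small nucleolar RNAs that were low in controls. In DESeq2 over the 5 libraries, the list median was 0.16 for growth hormone and IGF axis and -0.00012 for circadian clock, and the log2 fold change turned to 0.048 for PCK1 and 0.020 for CPS1. In DESeq2 over the 13 libraries, the list median was -0.0014 for urea cycle and amino acid catabolism, and the log2 fold change turned to 0.0063 for PCK1. Without mitochondrial and small RNA genes, the list median was -0.052 for urea cycle and amino acid catabolism, 0.049 for growth hormone and IGF axis, -0.018 for growth factors of regeneration and -0.13 for circadian clock. In edgeR over the 5 libraries, the list median was -0.0041 for urea cycle and amino acid catabolism and -0.085 for growth factors of regeneration. Without the filter on low counts, the list median was -0.0072 for urea cycle and amino acid catabolism. With RLE normalization, the list median was -0.0015 for urea cycle and amino acid catabolism, and the log2 fold change turned to 0.0062 for PCK1. With upper quartile normalization, the list median was -0.014 for urea cycle and amino acid catabolism, and the log2 fold change turned to 0.0080 for PCK1. With 1 library left out at a time, the list median ran from 0.38 to 1.82 for heat shock chaperones, 0.45 to 1.44 for immediate early genes, 0.042 to 0.59 for unfolded protein and integrated stress response, 0.44 to 0.85 for hypoxia response, 0.032 to 0.52 for antioxidant and NRF2 targets, -0.019 to 0.30 for p53 targets and cell death regulators, 0.35 to 1.27 for cytokines, 0.63 to 1.11 for feedback inhibitors of NF-kB and STAT3 signalling, 0.44 to 1.17 for chemokines and receptors, -1.12 to 0.64 for interferon-stimulated genes, 0.077 to 0.53 for antigen presentation, -0.95 to -0.32 for positive acute phase proteins, -0.55 to -0.23 for complement, -0.33 to 0.26 for coagulation and fibrinolysis, 0.41 to 1.00 for cholesterol synthesis and uptake, -0.72 to 0.17 for bile acid synthesis and transport, -0.59 to -0.24 for fatty acid oxidation and ketogenesis, -0.13 to 0.51 for lipogenesis, -0.11 to 1.49 for apolipoproteins and lipoprotein assembly, -0.43 to 0.17 for gluconeogenesis, glycolysis and glycogen, -0.20 to 0.31 for urea cycle and amino acid catabolism, -0.75 to -0.15 for drug-metabolizing cytochrome P450, -0.34 to 0.020 for phase II conjugation, 0.077 to 0.53 for iron, heme and metal handling, -0.87 to -0.43 for plasma proteins other than acute phase, -0.40 to 0.065 for hepatocyte transcription factors, -0.028 to 0.28 for growth hormone and IGF axis, -0.29 to 0.48 for growth factors of regeneration, -0.048 to 0.19 for circadian clock, -0.70 to 0.44 for cell cycle and DNA replication, -0.026 to 0.63 for mitochondrial genome, 0.53 to 1.30 for nuclear respiratory chain, 0.37 to 1.20 for cytosolic ribosomal proteins, 0.42 to 0.77 for mitochondrial ribosomal proteins, 0.24 to 0.45 for proteasome subunits, -2.90 to -1.73 for small nucleolar RNAs, 0.75 to 1.41 for neutrophils, -0.14 to 0.59 for Kupffer cells and macrophages, -0.33 to 0.51 for T, NK and B lymphocytes, -0.41 to -0.064 for sinusoidal and vascular endothelium, -0.53 to 0.41 for endothelial activation, 0.15 to 0.66 for stellate cells and matrix, 0.065 to 1.12 for cholangiocytes and keratins and -0.33 to 2.58 for erythroid cells. The log2 fold change ran, with a change of sign, from -1.15 to 3.13 for HSPA1L, -0.17 to 0.84 for HSPA5, -0.54 to 0.11 for NQO1, -0.42 to 0.79 for CDKN1A, -0.37 to 2.45 for IL6, -1.02 to 6.01 for TNF, -1.06 to 0.50 for CCL2, -0.26 to 0.13 for F2, -0.28 to 0.31 for PCK1, -0.84 to 0.36 for CPS1, -0.53 to 0.092 for CYP2E1, -2.70 to 4.76 for CYP1A1, -1.07 to 0.14 for UGT2B31, -0.33 to 2.70 for HAMP, -1.35 to 0.16 for ALB, -0.38 to 0.19 for HNF4A, -0.52 to 0.34 for IGF1, -1.05 to 0.75 for HGF, -1.78 to 0.44 for TOP2A, -0.76 to 0.12 for PSMA1, -0.48 to 0.42 for CD163, -2.82 to 0.41 for SELP and -0.33 to 2.79 for AHSP. The other named genes kept their direction in each setting that could be fitted for them.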
